A study of Mus musculus with 15 samples.

Results

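The comparison described here sets the ribosome-bound messages of obstructed mouse kidney on day 2 against those of sham-operated kidney on day 0. It rests on 6 of the 15 arrays of the series, chosen by their labels as the day 2 bound arrays 7, 8 and 9 and the day 0 bound arrays 1, 2 and 3. Every animal, obstructed or sham, carried the Col1a1-eGFPL10a transgene, in which a fusion of the fluorescent protein eGFP with the ribosomal protein L10a lies behind a collagen 1α1 promoter and enhancer. In translating ribosome affinity purification (TRAP), ribosomes that carry this tag are captured from a lysate with the mRNA they hold, here called the bound fraction. The labels name the tissue as kidney pericytes, meaning periarterial fibroblasts of the inner and outer medulla, give the strain as C57/129sv and the sex as both, and place the age between postnatal days 14 and 300. Day 2 kidneys had undergone unilateral ureteral obstruction, the closing of a single ureter, and day 0 kidneys a sham operation. The tag is made wherever the collagen element is active, so the model is limited to the cells that use this element. Whether arrays of the same group represent different animals is not stated, so a p-value here reflects only how much these samples vary, and 3 arrays per group limit the precision. A day 2 unbound fraction was not analysed here.

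Ureteral obstruction raises pressure in the tubules, injures their epithelium and starts an inflammatory and fibrotic response. Resident fibroblasts and pericytes, which support the capillaries and make little matrix at rest, are known to enter the cell cycle, secrete cytokines and lay down collagen as they become myofibroblasts. Messages on tagged ribosomes report what the collagen-expressing cells translate, together with whatever RNA of other cells is carried along in the purification. In these bulk samples, fewer cells of a type and less RNA per cell cannot be told apart.

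Genes tied to the tag and to the labelled cells were compared between the 2 groups. Such a comparison of days does not check the cell type that the labels name. Col1a1, the collagen gene whose control element drives the tag, had log2 signals of 12.87, 12.79 and 12.65 on the day 2 arrays, against 11.54, 11.59 and 11.70 on the day 0 arrays. All day 2 values lay above all day 0 values, with a log2 difference of 1.16 ± 0.19 (SE) and an adjusted p of 0.00292. With only these 2 groups in the fit the adjusted p was 0.121, and with the 6 arrays normalized and fitted alone it was 0.0966. Vim, an intermediate filament of mesenchymal cells, read 13.35 to 13.62 on day 2 arrays and 13.67 to 13.76 on day 0 arrays. Its groups did not overlap, but the log2 difference of -0.257 did not pass (adjusted p = 0.419). Rpl10a, which encodes the native form of the tagged ribosomal protein, differed by 0.19 ± 0.18 in log2 signal (adjusted p = 0.577) and its groups overlapped.

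Signal was the log2 of the deposited intensity plus 1 after quantile normalization over the 15 arrays, and each array's highest negative control was taken as its floor, between 3.92 and 5.09 in log2 signal on these 6 arrays. The day 2 arrays correlated at 0.918 to 0.929 with each other across genes, and the day 0 arrays at 0.938 to 0.951. Array 8 correlated best with the day 5 bound arrays (0.927 to 0.958), and array 7 with the day 5 unbound arrays (0.946 to 0.948), above its 0.918 to 0.922 with its own group. Array 9 correlated at 0.920 to 0.933 with the day 5 unbound arrays. Array 9 was also the brightest of the 6, with spiked hybridization controls averaging 12904.8 intensity units against 4780.82 to 5808.16 on the other 5. Its Gapdh 5′ to 3′ signal ratio was 0.178, against 0.375 to 0.532 on the others. Its mean over 3 Y-linked genes was 3.05 in log2 signal, below its floor of 4.23. That mean was 8.74 and 8.18 on arrays 7 and 8, and 6.73 to 7.17 on the day 0 arrays. The labels give the sex as both, and the sex make-up of each array was not tested. Fits without array 9, without the 4 bright arrays of the series and with a brightness covariate are among the alternatives described below. Of the 4 bright arrays, numbers 6, 9, 12 and 15, only array 9 is among the 6 compared here. Leaving out all 4 also leaves fewer arrays to estimate the spread. The part of each single difference in the results was not tested.

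Of 16864 genes tested, 1560 (9.25%) differed between day 2 and day 0 at an adjusted p under 0.05. On day 2, 944 genes rose (5.6% of those tested) and 616 fell (3.65%). The median log2 difference was 1.82 among the genes that rose, -1.80 among those that fell and 0.00 over all genes. A log2 difference above 4 was reached by 96 genes that rose and by 24 that fell. The arrays of the 2 groups did not overlap for 921 of the genes that rose and 593 of those that fell, and 3619 genes (21.5%) did not overlap whether or not they passed. Without array 7 the test passed 2724 genes, without array 2 it passed 1012 and without array 3 it passed 992. With only these 2 groups in the fit, which gives a less certain estimate of the spread, 246 genes passed.

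**Figure D1:**
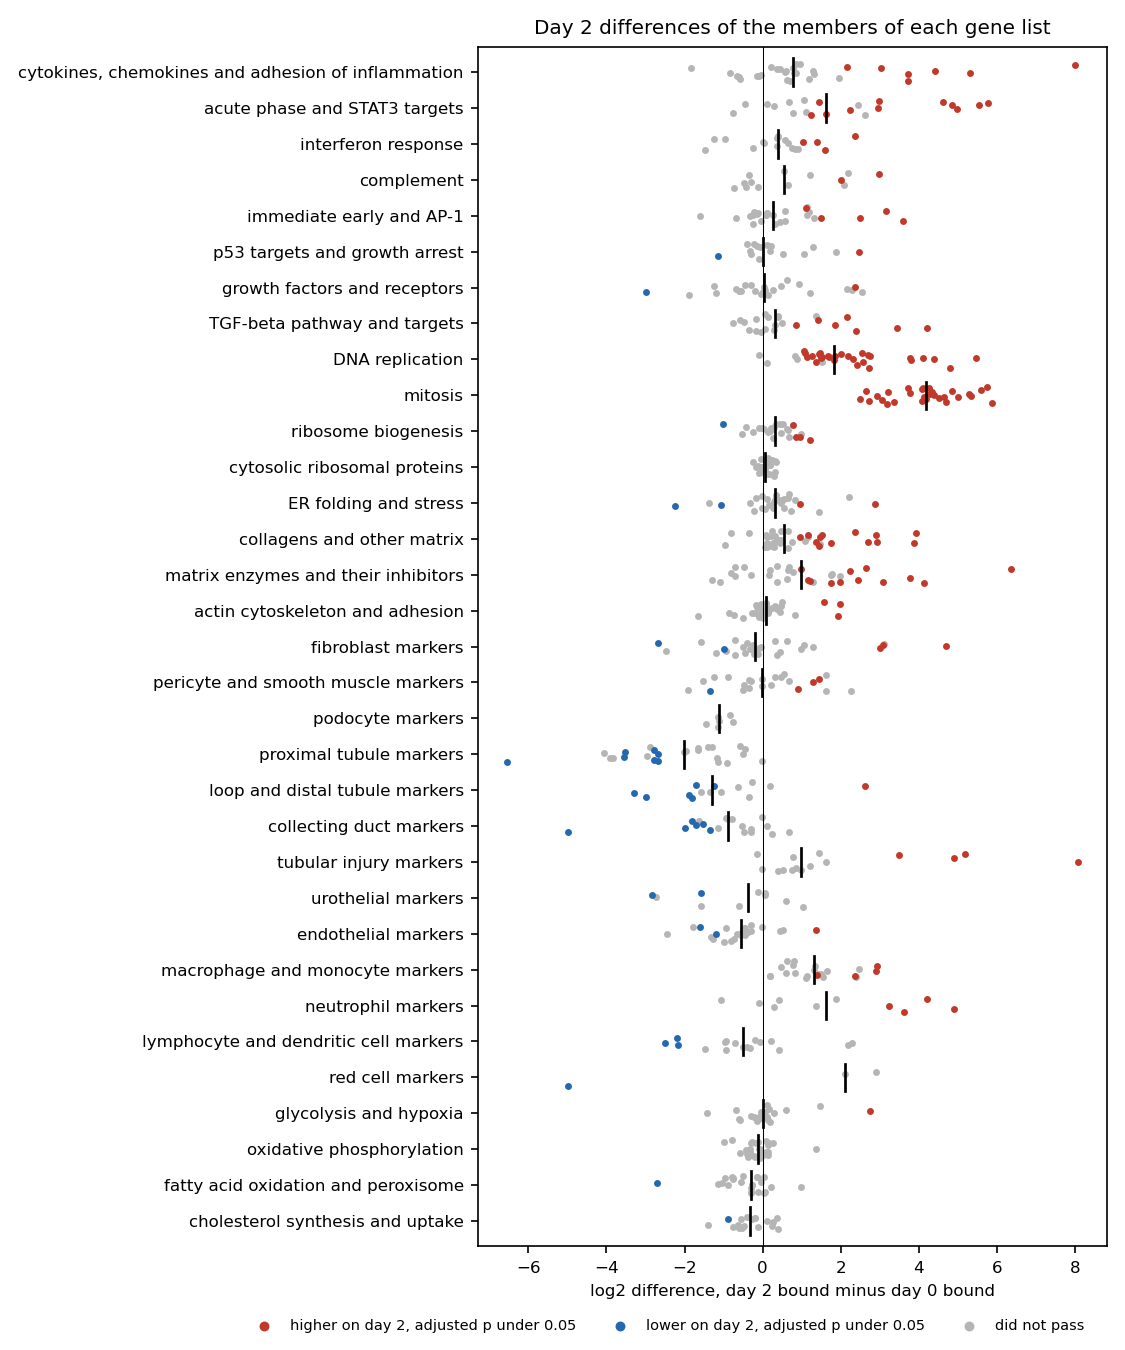
Each point is the log2 difference, day 2 bound minus day 0 bound, of 1 gene in 1 of 33 gene lists, coloured by whether it rose, fell or did not pass at an adjusted p under 0.05, and black bars are list medians. All 29 mitosis genes lie between 2.49 and 5.88, and the 25 proximal tubule markers between -6.55 and -0.02.

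Genes that carry out cell division had the highest median of the 33 lists. All 29 mitosis genes tested rose, with a median log2 difference of 4.17, and 28 of 33 DNA replication genes rose, with a median of 1.83. Of all genes tested 5.6% rose. The mitosis count stayed at 29 when any 1 of the 6 arrays was left out, and was 27 without the 4 bright arrays of the series and 22 with only the 2 groups in the fit. The replication count ran from 23 to 30 when 1 array was left out and was 8 with only the 2 groups in the fit.

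In the kinetochore and spindle checkpoint group, Bub1, a checkpoint kinase, had log2 signals of 8.89, 9.38 and 9.36 on day 2 arrays, against 4.01, 4.97 and 1.01 on day 0 arrays. The log2 difference was 5.88 ± 0.75 (adjusted p = 0.000506). Every day 2 array stood far above the brightest day 0 array, and 1 of the day 0 arrays was at or below its negative controls. Nuf2 and Ndc80, which form part of the complex that ties kinetochores to microtubules, differed by 5.34 ± 0.37 and 5.60 ± 0.68 in log2 signal. Aurkb, a kinase of the chromosomal passenger complex, read 8.16, 8.93 and 8.01 on day 2 arrays and was at or below the negative controls on all 3 day 0 arrays, so it was at least 20.0-fold higher on day 2. Cenph, a centromere protein outside the mitosis list, was at least 19.5-fold higher by the same reckoning, at 7.67, 8.58 and 8.74 on day 2 arrays.

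Mki67, the proliferation antigen Ki-67, had log2 signals of 11.59, 11.29 and 11.31 on day 2 arrays, against 6.87, 7.31 and 7.26 on day 0 arrays. It was 19.1-fold higher on day 2 (log2 difference 4.25 ± 0.27, adjusted p = 3.08e-06). Top2a, the topoisomerase that untangles sister chromatids, read 11.57, 11.35 and 11.34 on day 2 arrays, against 6.89, 6.58 and 6.72 on day 0 arrays. It was 25.9-fold higher (log2 difference 4.69 ± 0.26), with both groups tight and far apart, though its 3 probe sets gave log2 differences from -1.45 to 4.69. Further genes among the 10 highest were Cdkn3, a phosphatase acting on cyclin-dependent kinases, at least 48.4-fold higher, Melk, a kinase of dividing cells (log2 difference 6.41 ± 0.56), Cdca5, which protects sister chromatid cohesion (6.15 ± 0.73), and Clspn, a replication checkpoint adaptor (6.13 ± 0.57).

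Among replication genes, Uhrf1, which carries DNA methylation through S phase, had log2 signals of 11.65, 11.54 and 11.68 on day 2 arrays, against 7.16, 7.22 and 7.35 on day 0 arrays. The 6 values fell into a pair of tight groups, with a log2 difference of 4.38 ± 0.20 (adjusted p = 3.11e-07). Chaf1b, a subunit of the chromatin assembly factor, read 8.20 to 8.94 on day 2 arrays and was at or below the negative controls on all day 0 arrays (adjusted p = 5.38e-05). Tk1, thymidine kinase of the S phase, was 27.9-fold higher (4.80 ± 0.41), and Mcm10, which helps to fire origins, differed by 4.11 ± 0.59.

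**Figure D2:**
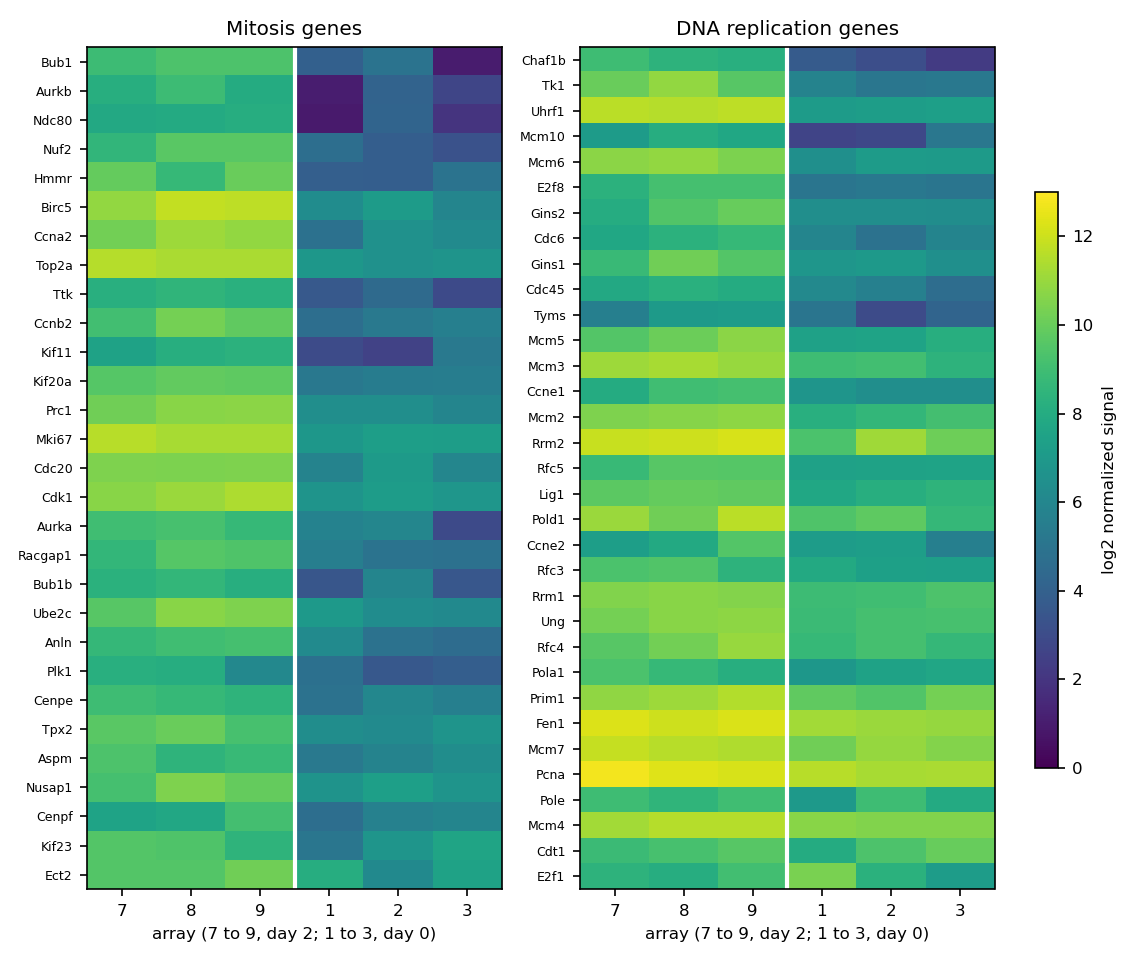
Log2 normalized signal of the 29 mitosis genes (left) and 33 DNA replication genes (right) on the day 2 arrays 7 to 9 and the day 0 arrays 1 to 3, each panel ordered by the difference. The mitosis panel changes colour at the white line for every gene, whereas the lowest rows of the replication panel do not.

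Because the division genes moved together, their promoters are shown for the sequence elements they share. RefSeq promoter windows on GRCm38.p6, running from 250 bases before to 50 after a start, were matched to 25 mitosis genes (27 windows) and 28 replication genes (33 windows). Each window was searched on both strands for the cell cycle homology region TTTGAA, for CCAAT, and for the E2F letters TTTCCCGC, TTTGGCGC or TTTCGCGC, with overlapping matches kept. TTTGAA was found in 81.5% of mitosis windows and 12.1% of replication windows. The share was 13.0% for the windows of all tested genes and 17.9% for all windows. CCAAT was found in 81.5% of mitosis windows and 51.5% of replication windows, against 37.1% for tested genes. An E2F sequence was found in 33.3% of replication windows and 3.7% of mitosis windows, against 2.91% for tested genes. A match describes the letters in the window and does not show that a factor binds there.

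Windows for display were chosen after the values were seen. Mitosis windows had to hold both TTTGAA and CCAAT, and replication windows an E2F sequence, the only element marked in them. Those of Top2a (chr11:99024140-99024439, minus strand) and of Hmmr, a spindle-associated hyaluronan receptor (chr11:40733388-40733687, minus strand), hold both mitotic elements. Those of Mcm6, a subunit of the replicative helicase (chr1:128359656-128359955, minus strand), and of Cdc6, which loads that helicase (chr11:98907901-98908200, plus strand), hold E2F sequences. Sequences run 5′ to 3′ on the gene's strand, and capitals mark TTTGAA and CCAAT or their reverse complements in the first 2 and E2F sequences or their reverse complements in the last 2.
Top2a: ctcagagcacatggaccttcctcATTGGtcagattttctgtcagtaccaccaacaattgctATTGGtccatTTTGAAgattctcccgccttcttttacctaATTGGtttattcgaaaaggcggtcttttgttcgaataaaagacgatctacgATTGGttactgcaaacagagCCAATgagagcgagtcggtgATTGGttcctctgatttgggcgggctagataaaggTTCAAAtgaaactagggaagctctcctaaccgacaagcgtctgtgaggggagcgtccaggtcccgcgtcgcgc
Hmmr: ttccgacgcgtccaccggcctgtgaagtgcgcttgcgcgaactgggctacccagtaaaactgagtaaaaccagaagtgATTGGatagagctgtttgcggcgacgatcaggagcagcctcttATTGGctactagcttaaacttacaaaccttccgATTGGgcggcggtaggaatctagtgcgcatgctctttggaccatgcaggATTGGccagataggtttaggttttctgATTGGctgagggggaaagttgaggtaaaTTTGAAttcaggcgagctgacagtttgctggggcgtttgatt
Mcm6: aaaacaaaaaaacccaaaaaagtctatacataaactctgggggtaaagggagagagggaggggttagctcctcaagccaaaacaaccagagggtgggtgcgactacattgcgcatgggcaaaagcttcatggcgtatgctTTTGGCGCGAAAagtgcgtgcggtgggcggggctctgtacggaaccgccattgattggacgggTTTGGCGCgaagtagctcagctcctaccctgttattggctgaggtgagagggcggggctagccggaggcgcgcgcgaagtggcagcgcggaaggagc
Cdc6: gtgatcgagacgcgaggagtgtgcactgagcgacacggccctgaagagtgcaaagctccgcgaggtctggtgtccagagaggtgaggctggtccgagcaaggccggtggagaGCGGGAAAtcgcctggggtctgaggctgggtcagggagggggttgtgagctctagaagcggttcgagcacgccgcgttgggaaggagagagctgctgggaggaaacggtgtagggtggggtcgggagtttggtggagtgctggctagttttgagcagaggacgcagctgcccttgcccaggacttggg
In Top2a, 2 matches to TTTGAA and 6 to CCAAT were found, and in Hmmr 1 and 5. Mcm6 held 3 E2F matches, of which 2 overlap, and Cdc6 held 1. The log2 difference was 5.29 ± 0.48 for Hmmr (adjusted p = 3.89e-05), 3.79 ± 0.26 for Mcm6 (5.06e-06) and 2.72 ± 0.38 for Cdc6 (0.000917).

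Secreted cytokines of the interleukin 6 family were among the genes with large increases. Il6 had log2 signals of 7.26, 9.43 and 9.87 on day 2 arrays, against 0.31, 1.49 and 0.72 on day 0 arrays. The day 0 arrays all lay at or below their negative controls, and Il6 was at least 28.0-fold higher on day 2 (adjusted p = 2.53e-05). Il11, which signals through the same gp130 receptor chain and drives fibroblast activation, read 10.16, 12.02 and 11.13 on day 2 arrays, against 6.73, 5.86 and 4.77 on day 0 arrays. It was 39.9-fold higher (log2 difference 5.32 ± 0.74, adjusted p = 0.000845), with array 8 the highest. Lif, another ligand of this family, differed by 4.42 ± 0.55 (adjusted p = 0.000415), and with all probe sets of the gene averaged its adjusted p was 0.0706.

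Of the 31 genes for cytokines, chemokines and adhesion tested, 7 rose, where 5.6% of all genes did. The other 24 did not pass, and the median log2 difference of the list was 0.78. Ccl12, a chemokine that draws monocytes, was 13.2-fold higher (3.72 ± 0.41). Ccl2, the related monocyte chemokine, read 7.98, 9.59 and 7.66 on day 2 arrays, against 7.18, 6.19 and 6.01 on day 0 arrays. Its groups did not overlap, but the difference did not pass (1.95 ± 0.61, adjusted p = 0.0675). Csf3 was at or below the negative controls on all 6 arrays. In the promoter windows of 21 genes of this list, the AP-1 letters TGANTCA, searched as above, were found in 6 of 24, against 6.1% of windows for tested genes. In the list of immediate early and AP-1 genes they were found in 1 of 30 windows.

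Genes of the acute phase response include many targets of the transcription factor STAT3, which gp130 receptors activate. Of 21 tested 11 rose, where 5.6% of all genes did, with a median log2 difference of 1.64. Lcn2, lipocalin 2, an iron-sequestering protein and marker of kidney injury, had log2 signals of 13.20, 12.11 and 12.70 on day 2 arrays, against 7.41, 7.91 and 8.10 on day 0 arrays. It was 29.0-fold higher (4.86 ± 0.29, adjusted p = 2.57e-06), and the groups stood clear of each other. Fgg, the gamma chain of fibrinogen, read 12.81, 9.46 and 9.98 on day 2 arrays, against 5.31, 4.71 and 4.93 on day 0 arrays. Array 7 was the highest for Fgg, and it was also the highest for Fgb, the beta chain, at 10.99 against 7.27 and 8.97 on arrays 8 and 9. The log2 differences were 5.77 ± 0.81 for Fgg (adjusted p = 0.000886) and 4.97 ± 0.84 for Fgb (0.00303). Saa1, serum amyloid A, rose by 5.54 ± 1.02 in log2 signal. Without the 4 bright arrays the adjusted p was 0.0686 for Saa1 and 0.0583 for Fgb. Without array 9 alone it was 0.019 for Saa1 and 0.0117 for Fgb.

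Immediate early and AP-1 genes encode transcription factors induced soon after a stimulus. Of 27 tested, 5 rose, where 5.6% of all genes did, and 22 did not pass, with a median log2 difference of 0.26. The count was 9 without array 7 and 3 without array 2 or array 3. Myc, a growth-promoting factor, had log2 signals of 9.21, 9.27 and 9.72 on day 2 arrays, against 6.65, 6.83 and 7.22 on day 0 arrays. It was 5.67-fold higher (2.50 ± 0.35, adjusted p = 0.000912), with no overlap. Egr2 differed by 3.17 ± 0.58 (adjusted p = 0.00521), at 11.13 to 12.27 on day 2 arrays and 6.93 to 9.84 on day 0 arrays. Egr1 and Fos did not pass. The log2 difference of Egr1 was 0.12 ± 0.21 (adjusted p = 0.793), and that of Fos was 1.14 ± 0.36 (adjusted p = 0.0647), with Fos tight at 9.93 to 10.01 on day 2 arrays and spread from 7.89 to 9.66 on day 0 arrays.

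In the lists of p53 targets and of growth factors few genes passed. Of 16 p53 targets 1 rose and 1 fell, where 5.6% of all genes rose and 3.65% fell. The riser was lost without array 1, 3 or 9 and the faller without array 1, 2, 3, 8 or 9. Cdkn1a, a cell cycle inhibitor, overlapped between groups (0.52 ± 0.45, adjusted p = 0.526). Of 24 growth factors and receptors 1 rose, Edn1, which encodes the vasoconstrictor endothelin 1 (2.37 ± 0.52, adjusted p = 0.014, and 0.0715 without the 4 bright arrays). Egf, which the distal nephron makes, was the 1 that fell and is described with the tubule markers. Without array 7, 4 genes of the growth factor list rose and 3 fell.

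Genes of transforming growth factor beta signalling, the best known profibrotic pathway of the kidney, rose in 7 of 23 cases. The median log2 difference was 0.32, and of all genes 5.6% rose. Ltbp2, a matrix protein of the latent TGF-beta binding family, had log2 signals of 8.65, 9.28 and 9.51 on day 2 arrays, against 5.31, 3.97 and 5.51 on day 0 arrays. It was 18.7-fold higher (4.22 ± 0.61, adjusted p = 0.00116), with 1 day 0 array at or below its negative controls. Inhbb, an activin subunit, was 10.8-fold higher (3.44 ± 0.49), and Tgfbi, a matrix protein induced by TGF-beta, was 4.46-fold higher (2.16 ± 0.29). Tgfb1, the ligand itself, differed by 2.39 ± 0.54 (adjusted p = 0.0163), but its 2 probe sets gave 0.36 and 2.39. Its adjusted p was 0.0669 without array 3, 0.0524 without array 8 and 0.064 with the probe sets averaged.

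Matrix genes rose in part. Of 38 genes for collagens and other matrix, 13 rose and 25 did not pass, where 5.6% of all genes rose. A positive log2 difference was seen for 35 of 38, and the list median was 0.56. The rising count was 9 without array 2. Col5a2, a chain of the fibril-nucleating collagen V, had log2 signals of 12.18, 12.56 and 12.35 on day 2 arrays, against 8.66, 10.08 and 9.66 on day 0 arrays. It was 7.44-fold higher (2.90 ± 0.30, adjusted p = 0.000126). Col5a3, another chain of the same collagen, read 9.01, 10.85 and 9.99 on day 2 arrays, against 5.72, 6.27 and 6.24 on day 0 arrays. The groups stood clear, and Col5a3 was 14.7-fold higher (3.87 ± 0.42, adjusted p = 0.000152). Fbln2, a fibulin of elastic fibres, differed by 3.94 ± 0.60 (adjusted p = 0.00159). Fn1, fibronectin, and Tnc, tenascin C, overlapped between groups and did not pass, with log2 differences of 0.64 ± 0.40 (adjusted p = 0.352) and 0.48 ± 0.27 (0.307). With its probe sets averaged Fn1 passed, at 1.36 (adjusted p = 0.0361).

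Enzymes that remodel matrix and their inhibitors rose in 12 of 31 cases, where 5.6% of all genes rose. The median log2 difference was 1.00, or 0.78 with arrays set to at least their negative controls. Timp1, an inhibitor of metalloproteinases, had log2 signals of 12.76, 13.07 and 12.99 on day 2 arrays, against 7.62, 6.50 and 5.61 on day 0 arrays. It was among the 10 highest genes, at 82.3-fold (6.36 ± 0.48, adjusted p = 9.94e-06), with day 2 tight and every day 0 array far below. Mmp9, a gelatinase, was 13.7-fold higher (3.77 ± 0.47), and Mmp19 8.55-fold higher (3.10 ± 0.48). Has2, which makes hyaluronan, read 5.84, 7.91 and 8.67 on day 2 arrays and was at or below the negative controls on all day 0 arrays, so it was at least 10.8-fold higher. Its adjusted p was 0.00468, and 0.0754 without the 4 bright arrays.

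Markers of the purified cells did not move as a group. Of 30 fibroblast markers 3 rose and 2 fell, with a median log2 difference of -0.20, and of 23 pericyte and smooth muscle markers 3 rose and 1 fell, with a median of -0.02. The shares, 5 of 30 and 4 of 23, stand beside 9.25% of all genes that passed in either direction. Without array 7, 5 fibroblast and 5 pericyte markers rose, and 3 and 2 fell. The rising pericyte count was 1 without array 2, 3 or 9, and 0 pericyte markers fell without array 1, 2, 3 or 9. Of the fibroblast markers 1 fell without array 1, 2, 3 or 9, and 2 rose without array 2, 3 or 8. On array 7 the median fibroblast marker lay at -0.71 relative to the day 0 mean, against 0.24 on array 8 and 0.08 on array 9. Thy1, a surface glycoprotein of fibroblasts and also of some T cells and neurons, had log2 signals of 10.86, 12.02 and 11.48 on day 2 arrays, against 6.59, 7.13 and 6.51 on day 0 arrays. It was 26.2-fold higher (4.71 ± 0.30, adjusted p = 3.08e-06), with no overlap.

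Cd44, the hyaluronan receptor, was 8.43-fold higher (3.08 ± 0.33, adjusted p = 0.000153), at 8.57 to 9.15 on day 2 arrays and 5.29 to 6.28 on day 0 arrays. Fap, a protease of activated fibroblasts, read 6.07, 6.71 and 6.11 on day 2 arrays, against 4.96, 1.78 and 3.10 on day 0 arrays. Its difference of 3.02 ± 0.69 passed (adjusted p = 0.0179), but not without array 2, 3 or 8 (0.0532 to 0.061), and 2 of 3 day 0 arrays were at or below their negative controls. Meox2, a homeobox factor, fell to at or below the negative controls on all day 2 arrays, against 5.43 to 5.98 on day 0 arrays, and was at least 2.33-fold lower (adjusted p = 0.0107). Without the 4 bright arrays its adjusted p was 0.114. Acta2, smooth muscle actin and the usual marker of myofibroblasts, read 13.16, 13.56 and 13.37 on day 2 arrays, against 12.40, 12.86 and 12.79 on day 0 arrays. Its groups did not overlap, yet the difference of 0.68 ± 0.21 did not pass (adjusted p = 0.0642). With the probe sets of Acta2 averaged the difference was 0.203 (adjusted p = 0.836). It passed without array 7 (0.0337), with a trended robust prior (0.0118) and with the filter at the 50th percentile (0.0397). Pdgfrb, the PDGF receptor of pericytes, overlapped (0.48 ± 0.32, adjusted p = 0.395). Mcam, a pericyte adhesion molecule, was 2.71-fold higher (1.44 ± 0.31, adjusted p = 0.0138, and 0.0759 without the 4 bright arrays).

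Of 31 actin cytoskeleton and adhesion genes 3 rose, where 5.6% of all genes did, with a median log2 difference of 0.08. The count was 5 without array 7 and 2 without array 2, 3 or 9. Itga5, the fibronectin receptor chain, was 3.80-fold higher (1.93 ± 0.31, adjusted p = 0.00227), at 10.15 to 10.40 on day 2 arrays and 7.99 to 8.80 on day 0 arrays. With its probe sets averaged the log2 difference was 0.54 (adjusted p = 0.462). Tubb3, a tubulin best known from neurons and outside the list, had log2 signals of 9.20, 11.53 and 9.45 on day 2 arrays, against 2.56, 4.84 and 0.83 on day 0 arrays. Array 8 was the highest, and 2 of 3 day 0 arrays were at or below their negative controls (7.32 ± 0.85, adjusted p = 0.000256). Rasd1, a small GTPase related to Ras, was at least 20.1-fold higher, with every day 0 array at or below its negative controls.

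Markers of injured tubules rose in part. Havcr1, kidney injury molecule 1, which damaged proximal tubule cells put on their surface, had log2 signals of 13.21, 11.39 and 12.57 on day 2 arrays, against 4.41, 4.04 and 4.45 on day 0 arrays. It showed the largest increase of any gene that the naming rule admits, with a log2 difference of 8.09 ± 0.57 (adjusted p = 5.41e-06) and 6.86 from its other probe set. The day 0 arrays lay close to the floor, 1 of them at or below its negative controls, and array 7 was the highest. Krt20, a keratin of injured and urothelial cells, was at least 5.93-fold higher, Sprr2f, a cornified envelope protein, was 30.0-fold higher (4.91 ± 0.59), and Clu, clusterin, was 11.3-fold higher (3.50 ± 0.30). Of the 15 injury markers 4 rose, where 5.6% of all genes did, and 13 had a positive difference, with a median of 0.99. The list's median on single day 2 arrays was 2.02 on array 7, 0.36 on array 8 and 1.11 on array 9. The markers' summed linear signal was 39000 to 60250 on day 2 arrays and 27450 to 30440 on day 0 arrays. The part of tubule RNA in the day 2 values was not tested.

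Markers of healthy tubules fell or lay lower. Of 25 proximal tubule markers 7 fell and 18 did not pass, all 25 had a negative log2 difference, and the median was -2.00. Of 14 loop and distal tubule markers 6 fell and 1 rose, with a median of -1.30, and of 19 collecting duct markers 6 fell, with a median of -0.88. Of all genes 3.65% fell. These counts moved with single arrays. The proximal tubule count was 15 without array 7, 4 without array 2, 2 without array 1, 8 or 9, and 1 without array 3. The collecting duct count was 3 without array 2 or 8 and 1 without array 3, and the loop and distal count was 4 without array 3. Summed linear signals of proximal tubule markers were 13180 to 51130 on day 2 arrays and 43500 to 69320 on day 0 arrays, so the ranges overlapped. Array 8 was the lowest of the day 2 arrays for all 3 tubule lists, with medians of -2.96, -2.12 and -1.50, and array 7 was the highest, at -0.91, -0.77 and -0.23.

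G6pc, glucose-6-phosphatase of gluconeogenic cells, had log2 signals of 4.10, 0.48 and 1.69 on day 2 arrays, against 8.12, 8.64 and 9.16 on day 0 arrays. It fell by 6.55 ± 0.73 in log2 signal (adjusted p = 0.0002), and 2 of 3 day 2 arrays were at or below their negative controls. Egf, the growth factor of the thick limb and distal convoluted tubule, read 10.68, 9.43 and 9.71 on day 2 arrays, against 12.48, 12.97 and 13.30 on day 0 arrays. It was 7.87-fold lower on day 2 (-2.98 ± 0.40, adjusted p = 0.000725), with no overlap. Slc4a1, an anion exchanger of acid-secreting collecting duct cells and of red cells, read 7.24, 5.52 and 5.55 on day 2 arrays, against 10.07, 11.22 and 11.96 on day 0 arrays. It was 31.6-fold lower (-4.98 ± 0.62, adjusted p = 0.000432).

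Not every tubule gene followed. Umod, uromodulin of the thick limb, stayed among the brightest genes, at 12.81 to 13.52 on day 2 arrays and 13.23 to 13.75 on day 0 arrays (adjusted p = 0.363). Trpm6, a magnesium channel of the distal convoluted tubule, rose by 2.63 ± 0.58 (adjusted p = 0.0145), but without array 1 or array 2 its adjusted p was 0.0504 or 0.052. Slc34a1, the phosphate carrier of the proximal tubule, fell by 3.54 ± 0.77 (adjusted p = 0.0138), and without array 3 its adjusted p was 0.0578. Other genes among the 10 lowest were Perm1, a regulator of mitochondrial gene expression in muscle (-4.61 ± 0.44), and Cyp2d26, a cytochrome P450 that was at least 8.80-fold lower. Nccrp1 (-5.45 ± 0.71) was among them as well.

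**Figure D3:**
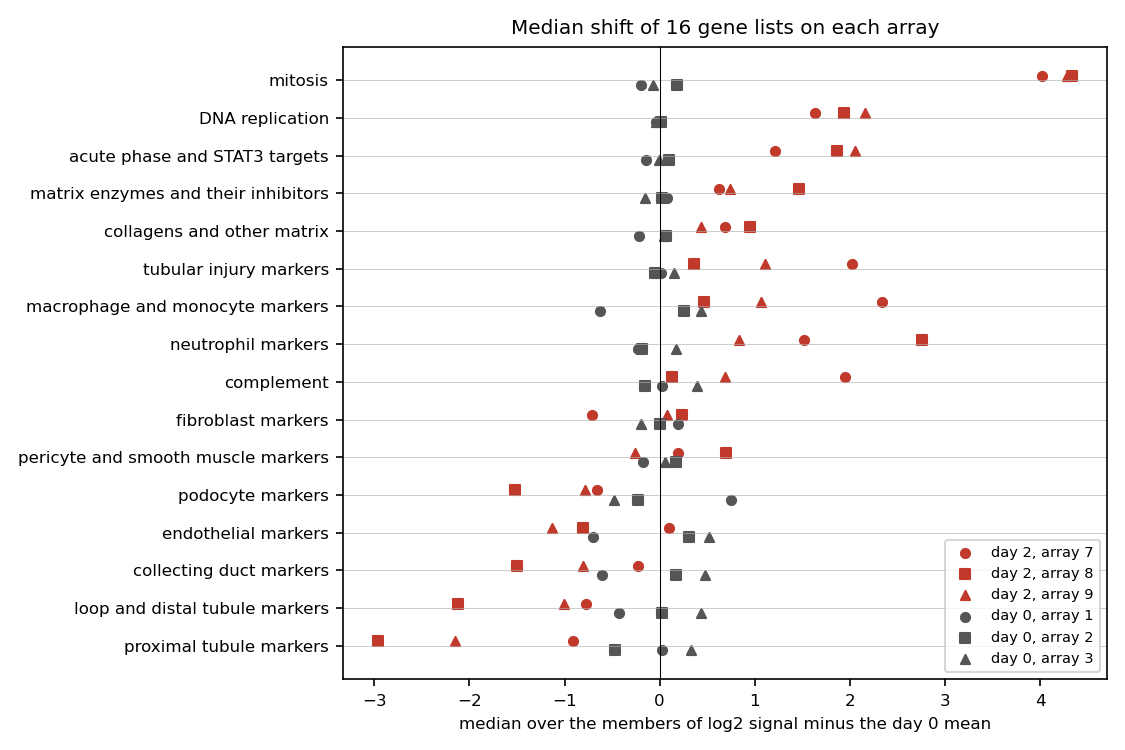
Each symbol is the median, over the members of 1 of 16 gene lists, of an array's log2 signal minus the day 0 mean, with day 2 arrays in red and day 0 arrays in grey. The 3 day 2 arrays lie together for mitosis (4.02 to 4.34) and apart for proximal tubule (-2.96 to -0.91) and macrophage markers (0.47 to 2.34).

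Podocytes, in which Col1a1 reporters are known to be active, were read from 6 markers. All 6 had a negative log2 difference, between -1.44 and -0.76, and 0 of 6 passed with limma (4 at an unadjusted p under 0.05). Nphs1, nephrin of the slit diaphragm, read 8.50, 7.93 and 8.80 on day 2 arrays, against 10.91, 8.92 and 8.83 on day 0 arrays, a difference of -1.14 ± 1.04 (adjusted p = 0.556). Summed podocyte signal was 10290 to 17770 on day 2 arrays and 20790 to 39360 on day 0 arrays, without overlap. Where 3.65% of all genes fell, 2 of 10 urothelial markers did, 1 without array 1 or 8 and 0 without array 3. One of them, Upk3a of the urothelial plaque, was at or below the negative controls on all day 2 arrays and at least 1.49-fold lower (adjusted p = 0.013, and 0.0525 without array 3).

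Markers of immune cells were partly higher. All 22 macrophage and monocyte markers had a positive log2 difference, with a median of 1.32, and 4 rose, where 5.6% of all genes did. The count was 7 without array 8. Cd14, the lipopolysaccharide co-receptor, had log2 signals of 11.12, 9.46 and 11.00 on day 2 arrays, against 6.89, 7.89 and 8.09 on day 0 arrays. It was 7.48-fold higher (2.90 ± 0.44, adjusted p = 0.00154), with array 8 the lowest of the day 2 arrays. Adgre1, the macrophage antigen F4/80, read 8.70 on array 7 but 5.95 and 5.29 on arrays 8 and 9, against 5.35, 7.24 and 6.76 on day 0 arrays, and did not pass (0.20 ± 0.78, adjusted p = 0.912). Summed macrophage signal was 8114 to 26090 on day 2 arrays and 4519 to 11100 on day 0 arrays, and the list's median was 2.34 on array 7, 0.47 on array 8 and 1.07 on array 9. The part of macrophage RNA in the bound fraction was not tested.

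Neutrophil genes rose in 4 of 10 cases, where 5.6% of all genes rose. The median log2 difference was 1.63, or 1.10 with arrays set to at least their negative controls. S100a9, a chain of the antimicrobial protein calprotectin, read 9.17, 9.12 and 11.49 on day 2 arrays, against 6.09, 4.94 and 4.08 on day 0 arrays. It was 29.7-fold higher (4.89 ± 0.76, adjusted p = 0.0017), with array 9 the highest, and its partner S100a8 was 18.4-fold higher (4.20 ± 0.80). Mpo, myeloperoxidase of neutrophil granules, was at least 6.52-fold higher (adjusted p = 0.00592, and 0.084 without the 4 bright arrays). The granule genes Ngp and Ltf were at or below the negative controls on all 6 arrays. Summed neutrophil signal was 881.4 to 4740 on day 2 arrays and 110.6 to 135.9 on day 0 arrays.

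Genes of antigen presentation were lower in part. Of 17 lymphocyte and dendritic cell markers 3 fell, where 3.65% of all genes did, and all 3 were parts of the MHC class II system. H2-Aa, a class II chain, had log2 signals of 8.58, 7.04 and 6.75 on day 2 arrays, against 9.03, 10.38 and 10.47 on day 0 arrays. It was 5.65-fold lower (-2.50 ± 0.52, adjusted p = 0.0115, and 0.12 without the 4 bright arrays). H2-Eb1, another chain, and Cd74, the invariant chain, fell by 2.19 ± 0.60 and 2.16 ± 0.55, and array 7 overlapped the day 0 arrays for both. Their adjusted p was 0.0387 and 0.0278, and without array 2, 3, 8 or 9 it was 0.106 to 0.131 for H2-Eb1 and 0.0827 to 0.102 for Cd74. The count of 3 was 1 without array 2, 3, 8 or 9. Cd4 and Nkg7 were at or below the negative controls on all 6 arrays.

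Interferon response genes rose in 4 of 19 cases and complement genes in 2 of 13, with median log2 differences of 0.40 and 0.55, where 5.6% of all genes rose. Oas1a, a sensor of double-stranded RNA, was 3.02-fold higher (1.59 ± 0.31, adjusted p = 0.00762, and 0.0844 without the 4 bright arrays). Cfi, complement factor I, was 7.92-fold higher (2.99 ± 0.63, adjusted p = 0.0119, and 0.0949 without the 4 bright arrays). The interferon count was 2 without array 1, 2 or 9, and the complement count was 1 without array 1, 2, 7 or 9 and 3 without array 8. Of 23 endothelial markers 2 fell, where 3.65% of all genes did, and 1 rose. Of the 23, 20 had a negative difference, with a median of -0.56. The falling endothelial count was 7 without array 7, 3 without array 1 and 1 without array 2, 3, 8 or 9, and the riser was lost without array 1, 2, 8 or 9. Pecam1, the adhesion molecule CD31, read 9.33, 7.17 and 5.97 on day 2 arrays and 7.38 to 8.17 on day 0 arrays, so array 7 lay above and arrays 8 and 9 below all day 0 arrays.

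Genes of core metabolism and of cytosolic ribosomal proteins moved less, while ribosome biogenesis genes rose in part. Of all genes 5.6% rose and 3.65% fell, and counts of 1 in the lists of this paragraph lie near these shares. Of 25 cytosolic ribosomal protein genes 0 passed with limma (0 at an unadjusted p under 0.05), and their log2 differences lay between -0.24 and 0.34, with a median of 0.06. Of 33 oxidative phosphorylation genes 0 passed (5 lower and 0 higher at an unadjusted p under 0.05), though 4 fell without array 7. Of 24 ribosome biogenesis genes 4 rose and 1 fell, with a median of 0.31. The rising count was 2 without array 8 or 9, 1 without array 1 and 0 without array 2 or 3. Hk2, the hexokinase isoform of growing cells, was the 1 of 20 glycolysis and hypoxia genes that rose, at 10.33, 9.14 and 9.28 on day 2 arrays, against 7.07, 6.68 and 6.76 on day 0 arrays (6.70-fold, 2.75 ± 0.46, adjusted p = 0.00303). The groups stood clear of each other. Of 24 genes for fatty acid oxidation and peroxisomes 1 fell (7 without array 7, and 0 without array 3 or 9), and of 18 cholesterol genes 1 fell (2 without array 7, and 0 without array 1, 2, 3 or 9).

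Genes of protein folding in the endoplasmic reticulum split. Of 28 tested, 2 rose and 2 fell, where 5.6% and 3.65% of all genes did. The rising count was 5 without array 7 and 1 without array 1, 2, 3 or 8, and the falling count was 1 without array 2, 3 or 8. Fkbp11, a prolyl isomerase of secretory cells, had log2 signals of 7.88, 9.73 and 8.77 on day 2 arrays, against 5.72, 6.57 and 5.47 on day 0 arrays. It was 7.35-fold higher (2.88 ± 0.43, adjusted p = 0.00129). Ddit3, the stress factor CHOP, read 8.45, 8.87 and 8.90 on day 2 arrays, against 11.52, 11.10 and 10.30 on day 0 arrays. It was 4.70-fold lower (-2.23 ± 0.33, adjusted p = 0.00121), with no overlap, and with its 2 probe sets averaged the adjusted p was 0.0868.

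The day 2 state can be placed beside day 5. Between the day 5 and day 2 bound arrays 99 genes (0.587%) passed, 86 higher (0.51%) and 13 lower (0.0771%) on day 5. This count was 1296 without array 8 and 27 without arrays 7 and 9, and ranged from 37 to 84 without any other single array of the 2 groups. With only the day 5 and day 2 arrays in the fit 0 genes passed with limma (1375 at an unadjusted p under 0.05). This comparison and the one with day 0 share the day 2 arrays. Array 11, of day 5, had the lowest median intensity of the 15 arrays, at 16.4, and its Gapdh 5′ to 3′ ratio was 0.0269, where the other day 5 bound arrays had 0.376 and 0.505. Without it 60 genes passed.

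Among named genes, Fap had log2 signals of 1.78 to 4.96 on day 0 arrays, 6.07 to 6.71 on day 2 arrays and 10.62 to 10.88 on day 5 bound arrays. Its day 5 minus day 2 difference was 4.46 ± 0.69 (adjusted p = 0.0155). Fbn2, fibrillin 2 of microfibrils, read 1.37 to 3.18 on day 0 arrays, 4.63 to 6.30 on day 2 arrays and 8.38 to 9.52 on day 5 arrays, and differed by 3.55 ± 0.55 between day 5 and day 2 (adjusted p = 0.0155). For both genes each later day lay above the one before with no overlap. Fgb went the opposite way, at 3.62 to 4.94, 7.27 to 10.99 and 3.80 to 5.58 on days 0, 2 and 5, and fell by 4.35 ± 0.84 between day 2 and day 5 (adjusted p = 0.0412). The day 5 values of Fgb overlapped those of day 0. Mael, a factor of the germline piRNA pathway, read 5.00 to 6.33, 0.38 to 1.74 and 3.53 to 5.63 on days 0, 2 and 5, with all day 2 arrays at or below their negative controls (day 5 minus day 2, 3.79 ± 0.61, adjusted p = 0.0156).

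Several genes that changed on day 2 did not pass between day 5 and day 2. Il6 differed by -1.05 ± 0.69 (adjusted p = 0.475), Timp1 by -0.27 ± 0.48 (0.819), Mki67 by 0.07 ± 0.27 (0.92) and Col1a1 by 0.21 ± 0.19 (0.624). H2-Aa, at 9.33 to 10.32 on day 5 arrays, stood clear of the day 2 arrays, but its difference of 2.44 ± 0.52 did not pass (adjusted p = 0.0618). The mitosis list had a median day 5 minus day 2 difference of 0.28, the collagens and other matrix 0.50 and the acute phase list 0.05, in which 2 genes passed as lower on day 5.

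**Figure D4:**
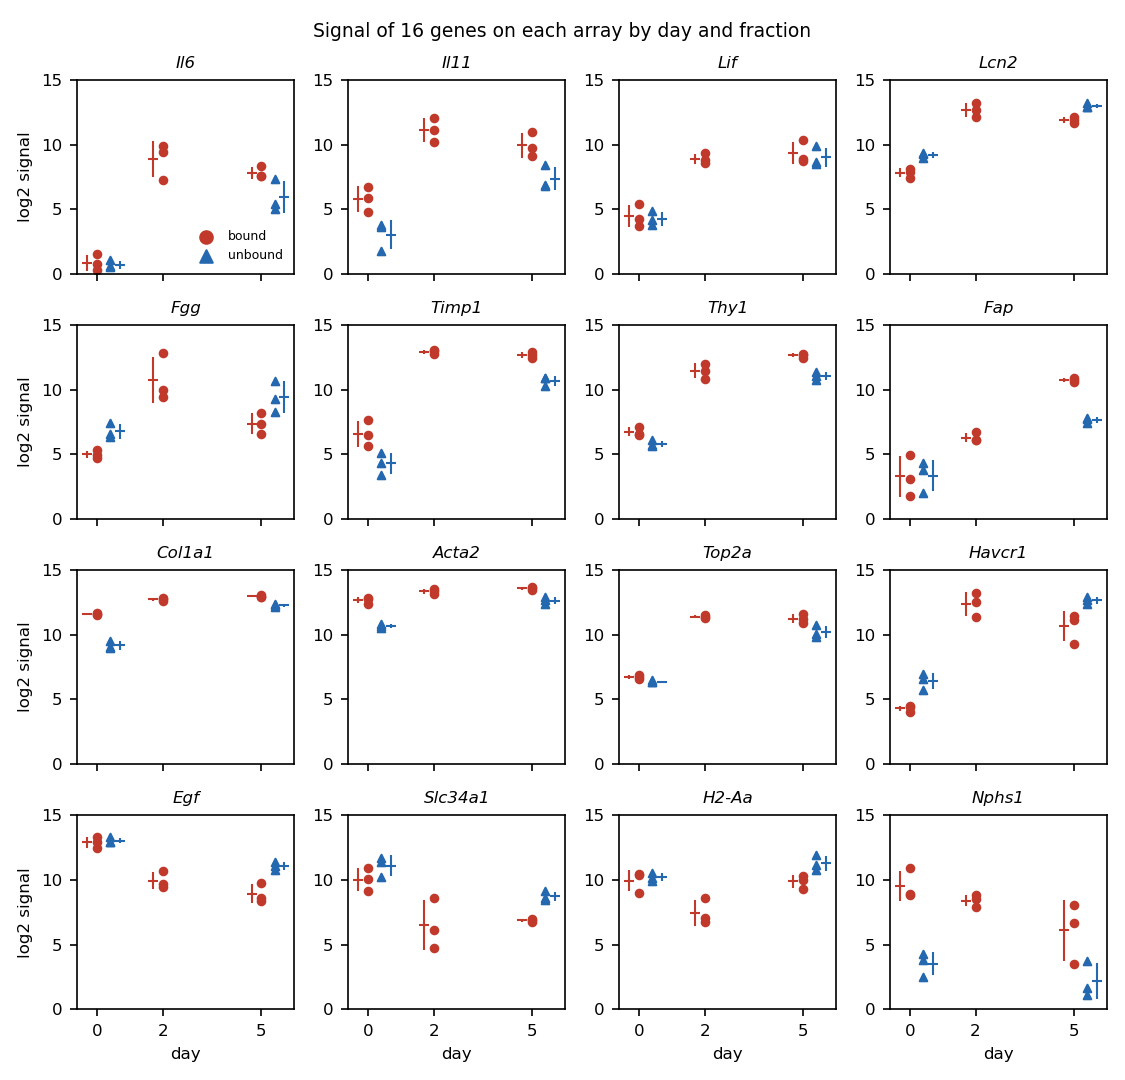
Log2 normalized signal of 16 genes on every array of the bound fraction on days 0, 2 and 5 (red circles) and of the unbound fraction on days 0 and 5 (blue triangles, shifted right), with group means and SD beside the points (n = 3). Il6, Timp1 and Thy1 are high on both day 2 and day 5, Fap is highest on day 5 and Fgg is highest on day 2 in the bound fraction.

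The unbound arrays of day 5 and day 0 share none of the 6 arrays used here. They show the same genes in RNA that was not captured. Both comparisons come from 1 fit, with a common normalization and a common estimate of each gene's spread, so they are not independent. Whether the day 0 bound and day 0 unbound arrays come from the same kidneys is not stated. Array 7 also correlated more with the day 5 unbound arrays (0.946 to 0.948) than with its own group (0.918 to 0.922). Between unbound day 5 and unbound day 0, 1747 genes passed (10.4%), 1085 higher (6.43%) and 662 lower (3.93%). Of the 944 genes that rose in the bound fraction on day 2, 912 (96.6%) had a positive difference there, where 50.4% of all genes did, and 484 (51.3%) rose. Of the 616 that fell, 561 (91.1%) had a negative difference, against 49.6% of all genes, and 277 (45.0%) fell. Passing in the opposite direction was seen for 1 and 4 genes. The arrays of the 2 comparisons differ in both day and fraction.

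**Figure D5:**
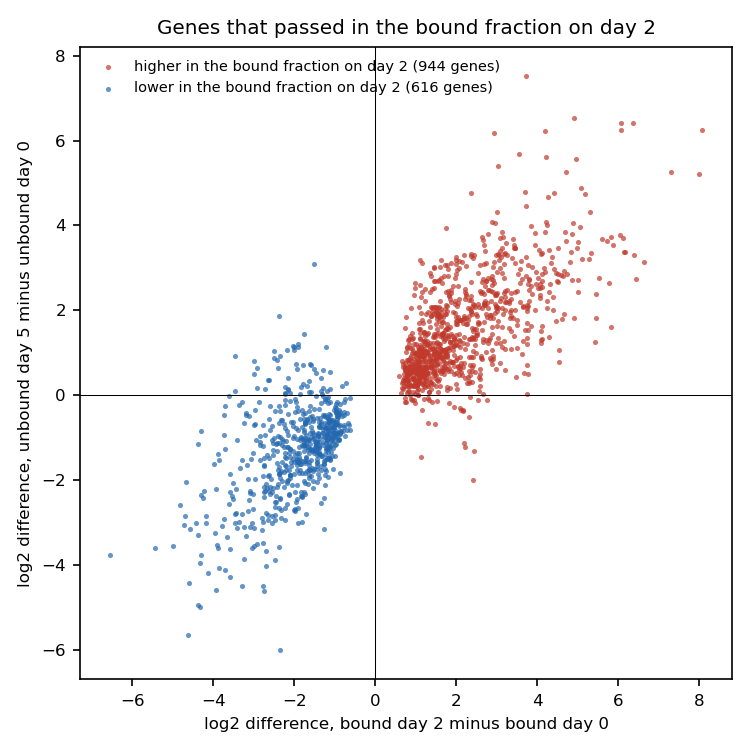
Each point is 1 of the 1560 genes that passed in the bound fraction, with its log2 difference of bound day 2 minus bound day 0 across and of unbound day 5 minus unbound day 0 up. Most of the 944 genes that rose (red) lie above 0 and most of the 616 that fell (blue) lie below it.

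By list, 25 of 29 mitosis genes and 17 of 33 replication genes also rose in the unbound fraction, with medians of 3.08 and 1.05. Thy1 differed there by 5.27 ± 0.30 (adjusted p = 4.08e-06) and Havcr1 by 6.25 ± 0.57 (6.09e-05). For macrophage markers the unbound median was 2.93, with 17 of 22 rising. For collagens and other matrix it was 1.90, with 30 of 38 rising. Proximal tubule markers had a median of -1.92, with 4 of 25 falling.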

How the data were processed

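Per the labels' protocols, polysomal RNA from a modified TRAP procedure was amplified once with a NuGEN WT-Ovation kit, biotin-labelled and hybridized to one-colour arrays. The authors deposited 1 column of linear intensity values per array, with 1 row per probe set. How probes were summarised or arrays scaled is not given in the sources used here. Signal over background, not read depth, limits precision.

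Intensities were turned into log2 after adding 1, and quantile normalization was applied across all 15 arrays. Of 45037 probe sets, 34945 matched 1 gene, 932 several and 9160 none. The brightest probe set represented each of 18193 genes, and 16864 genes exceeding their array's 25th percentile in 3 or more arrays were tested. Genes without a probe set of their own were not analysed here. The limma 3.58.1 model (R 4.3.3) had 1 coefficient for each of the 5 groups. Benjamini-Hochberg adjustment covered all genes, with a threshold of 0.05. The fit was first tested on simulated data. Folds written as at least a value are bounds against the highest of 27 negative controls. Bounds are given only where every array of a group lay at or below its negative controls, and other differences use the values as read. Folds are on the scale of the value plus 1, and for low genes their size depends on the amount added. With 16 added, the log2 difference was 4.845 for Il6, 5.423 for Tubb3 and -4.275 for G6pc, against 8.013, 7.315 and -6.55. For the brighter Mki67 it was 4.09, against 4.252.

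The genes and the 33 lists were chosen with earlier results of these data known. The genes named are landmark genes, the 10 largest rises and 10 largest falls without overlap, and at most 4 members per list, taken by size of difference. The promoters shown are the exception. Alternatives changed the filter, normalization, pseudocount, probe set rule, prior, array weights, brightness covariate, arrays in the fit and threshold. Leaving out arrays 7 and 9 together was added after seeing the data. matplotlib 3.10.9 drew the figures.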

Additional observations from a re-analysis of the deposited data

How the results depend on the processing

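The total of 1560 genes was 297 with the 6 arrays normalized and fitted alone, 246 with only the 2 groups fitted, 493 without the 4 bright arrays, 581 at an adjusted p under 0.01, and 992 to 2724 when 1 array was left out. In that order the count of higher genes was 213, 175, 299, 412 and 644 to 1605, against 944, and that of lower genes was 84, 71, 194, 169 and 337 to 1119, against 616. The fits to 2 groups estimate the spread from fewer arrays. The fit without the 4 bright arrays does so too. Edn1, Has2, Meox2, Mcam, Mpo, H2-Aa, Oas1a and Cfi did not pass in it but passed when any 1 of the 6 arrays was left out. Of the 246 genes passed by the 2-group fit, 237 (96.3%) were among the 1560, which is 15.2% of the 1560. Both fits use the same log2 values, so this overlap is no separate check. When 1 array was left out, 57.2% (array 3) to 90.2% (array 7) of the 1560 were kept. The other totals, with other filters, median centring, averaged probe sets, another prior, array weights, pseudocount 16, a brightness covariate or a 2-fold minimum, lay within 1.5 times of 1560. Similar totals did not mean the same genes. These refits kept from 66.4% (array weights) to 96.4% (pseudocount 16) of the 1560, with 67.6% for median centring and for averaged probe sets.

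For day 5 against day 2, the 99 genes became 1 with the 6 arrays alone, 0 with only the 2 groups (1375 at an unadjusted p under 0.05 with limma), 196 with a trended robust prior, 22 with array weights, 239 with pseudocount 16, 3 without the bright arrays, 27 without arrays 7 and 9, 17 at an adjusted p under 0.01, and 37 to 1296 when 1 array was left out.

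Of 130 named genes 113 passed, and 45 of them passed under every alternative except the stricter threshold. Of the 113, 0 changed sign under the alternatives run. Among the others, the log2 difference of Cdkn1a was -0.182 without arrays 7 and 9, and that of Egr1 ran from -0.004 (without array 8) to 0.194 when 1 array was left out. Adgre1 gave -0.654 with array weights, -0.5 without arrays 7 and 9, -0.356 without array 1, and from -0.831 (without array 7) to 0.876 when 1 array was left out. Pecam1 gave 0.454 without the bright arrays, and from -1.224 to 0.454 (without array 9) when 1 array was left out. Cox7c gave -0.219 (without array 1) to 2.686. The causes were not tested.

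No paired analysis was possible because the array numbers in the labels are unique to each array and no number is shared between the groups. Signals at or near the negative controls have no reliable size, and 100 of the genes that rose had all day 0 arrays there.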
